A study of Arabidopsis thaliana with 8 samples.

Results

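The 9 ATG8 genes of Arabidopsis thaliana, ATG8A to ATG8I, and NBR1 are described here across wild type and the mutant skip-1, with and without abscisic acid (ABA). The members were chosen by name and locus, as the genes for the ubiquitin-like ATG8 proteins and for the cargo receptor NBR1, and they are 10 of the 33674 features counted. Earlier results of these data were known when they were chosen. Messenger RNA was sequenced from 13-day-old seedlings of ecotype Columbia-0 and of the mutant skip-1. The gene SKIP makes a protein of the spliceosome that is also known to act in transcription. Both lines were grown in days of 16 hours of light, and seedlings received 0 or 100 µM ABA, a hormone of drought stress, for 3 h. The groups are wild type at 0 µM, wild type at 100 µM, skip-1 at 0 µM and skip-1 at 100 µM, with 2 libraries each. The study is titled for splicing under ABA, and gene-level counts hold no measure of it. With 1 mutant line, the mutation and any other difference of that line from Columbia-0 cannot be told apart.

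In autophagy, cell material is enclosed in a double membrane, the autophagosome, and carried to the vacuole for breakdown. ATG8 proteins are attached to the lipid phosphatidylethanolamine of that membrane through a glycine at their C terminus, help it to form, and bind receptors that bring in selected cargo. In most ATG8 proteins the protease ATG4 must first remove the residues behind that glycine, whereas plant ATG8H and ATG8I are made with the glycine exposed. NBR1 binds ubiquitin on its cargo and ATG8 on the membrane and is itself carried into the vacuole, and autophagy is known to be induced by starvation, drought and ABA.

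The ends of the 9 coding sequences are shown because they divide the family by this processing step. Each line holds the last 30 coding bases, stop codon included, in the sense direction (RefSeq, TAIR10.1), and capitals mark the codon of the glycine. The codon was found as the one that follows a threonine and a phenylalanine codon.
ATG8A: aacacttttGGAtctcttaccgttgcttga
ATG8B: aacacatttGGTggatctttctactgctaa
ATG8C: agtggagagaacacctttGGTttggtttaa
ATG8D: ggtgagaacacgttcGGGatcttcttctaa
ATG8E: gagaacacattcGGTgcttcttcaatctaa
ATG8F: gaaaacacatttGGAtttggatctccataa
ATG8G: gaaaacacttttGGAtcgtcaatgacttaa
ATG8H: tgctacagcaccgagaaaactttcGGCtaa
ATG8I: tgctatagcagtgagaaaacctttGGTtga
ATG8A (chr4:11656780-11656809, plus strand) and ATG8B (chr4:2328663-2328692, minus strand) had 5 codons between the glycine and the stop. ATG8E (chr2:18625497-18625526, plus), ATG8F (chr4:9306882-9306911, minus) and ATG8G (chr3:22416942-22416971, plus) had 4. ATG8D (chr2:2083211-2083240, minus) had 3, and ATG8C (chr1:22934224-22934253, plus) had 2. In ATG8H (chr3:1955219-1955248, minus) and ATG8I (chr3:5274075-5274104, minus) the glycine codon was directly followed by the stop. Over whole coding sequences, the 36 pairs of ATG8 genes were 54.1% to 84.3% identical. ATG8A and ATG8B were the closest pair, and ATG8H and ATG8I shared 66.1%. Over the joined exons, untranslated parts included, the longest run shared by ATG8A and ATG8B was 53 bases. Reads from such a run could not be assigned from gene counts, and the sources used here do not give the rule by which they were counted.

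The regions just before the annotated starts of ATG8A, ATG8E and ATG8F are shown because ATG8A was called higher and ATG8F lower with ABA, and ATG8E was the member called higher in skip-1 than in wild type with ABA. ABA-regulated bZIP factors are known to bind sequences with the core ACGTG, and capitals mark each match to ACGTG on either strand. Each line holds the 250 bases before the start, 5′ to 3′ on the strand of the gene (RefSeq, TAIR10.1).
ATG8A: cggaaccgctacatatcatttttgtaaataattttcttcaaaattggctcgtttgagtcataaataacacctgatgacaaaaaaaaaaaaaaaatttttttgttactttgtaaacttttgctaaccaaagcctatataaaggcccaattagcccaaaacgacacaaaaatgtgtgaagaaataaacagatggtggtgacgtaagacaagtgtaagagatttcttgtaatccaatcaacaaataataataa
ATG8E: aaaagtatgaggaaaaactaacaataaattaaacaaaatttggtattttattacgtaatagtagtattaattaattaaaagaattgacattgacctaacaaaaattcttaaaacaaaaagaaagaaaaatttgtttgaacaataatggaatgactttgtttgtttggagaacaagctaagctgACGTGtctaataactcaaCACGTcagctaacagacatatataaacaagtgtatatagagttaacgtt
ATG8F: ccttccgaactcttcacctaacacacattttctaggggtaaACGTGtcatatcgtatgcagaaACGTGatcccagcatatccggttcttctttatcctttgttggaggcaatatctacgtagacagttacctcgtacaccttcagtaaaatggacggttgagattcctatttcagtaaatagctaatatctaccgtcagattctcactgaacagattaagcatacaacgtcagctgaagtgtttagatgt
The windows are chr4:11655312-11655561 (plus strand) for ATG8A, chr2:18624014-18624263 (plus) for ATG8E and chr4:9308539-9308788 (minus) for ATG8F. ATG8E held 2 matches, whose first bases lay 67 and 49 bases before the start, and ATG8F held 2, at 209 and 187 bases. Of all 27443 such windows, 22.9% held ACGTG. The longer CACGTG, which contains ACGTG, was in 6.49% of windows and in none of the 10 members. ATG8G, ATG8H and ATG8I had 1 match each, and ATG8A, ATG8B, ATG8C, ATG8D and NBR1 had none in these windows. The window of ATG8H overlapped the neighbouring gene AT3G06430, and that of ATG8I overlapped AT3G15585. Windows that overlap a gene are not shown. ATG8B and ATG8H were also called higher with ABA, and their windows are not shown, that of ATG8H because of its overlap. These matches describe the letters and are no evidence of binding.

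The libraries held 20870110 to 23640113 counted reads, and the edgeR filter kept 21008 features, among them all 10 members. Levels per library are counts scaled to library size with the trimmed mean of M values (CPM), and changes are log2 fold changes ± an approximate standard error from the edgeR quasi-likelihood test, with p-values adjusted over all tested genes. SKIP (AT1G77180) was at 136 to 163 CPM in the wild-type libraries and at 104 to 133 CPM in those of skip-1. The sources used here do not name the lesion, so this level does not check the labels. Libraries of 1 group differed by more than sampling noise. The 5 leaf markers summed to 26800 to 29100 CPM in wild type without ABA and 17300 to 19600 with it, and in skip-1 to 35900 to 37400 and 23700 to 24300. RBCS1A and LHCB1.3 made up most of that sum. The leaf markers were not all lower with ABA in wild type, since GLDP1 was at 675 and 605 CPM without it and 687 and 895 with it. The libraries of CA1 overlapped, at 1090 and 715 CPM without ABA and 757 and 709 with it. The 5 root markers summed to 90.5 to 110 CPM and 42.8 to 47.7 CPM in wild type, and to 86.6 to 101 and 43 to 45.4 in skip-1. PHT1;1 made up most of that sum. In wild type EXPA7 was at 3.16 and 3 CPM without ABA and 2.92 and 2.87 with it. Without ABA, COBL9 and EXPA7 were higher in both skip-1 libraries than in both of wild type. CASP2 was lower there, and CASP1 and PHT1;1 overlapped. The 4 seed and flower markers, which such seedlings should lack, reached at most 0.748 CPM in sum. Their part in the results below was not tested, and in whole seedlings fewer cells of a type and less RNA per cell cannot be told apart. Scaling by library size alone moved the median log2 fold change of all genes from −0.011 to −0.219 for ABA in wild type, from −0.021 to 0.12 for skip-1 against wild type with ABA and from −0.021 to 0.152 for the interaction. The direction of small changes in those 3 comparisons therefore depends on the scaling.

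The levels of different genes were compared per length, as the authors' FPKM (fragments divided by gene length and by library total, mean ± SD, n = 2). In wild type without ABA, ATG8F was the most abundant ATG8 transcript at 155 ± 5.02 FPKM, and NBR1 stood at 146 ± 5.97 FPKM. They were followed by ATG8I (92.2 ± 2.79), ATG8E (78.8 ± 4.43), ATG8A (51 ± 6.8), ATG8C (41.7 ± 1.72), ATG8B (31.3 ± 2.34), ATG8D (28.4 ± 0.578), ATG8H (24 ± 1.64) and ATG8G (15.2 ± 0.675 FPKM). No neighbours in that order overlapped between libraries. With ABA, wild type had ATG8A first at 112 ± 5.6 FPKM, NBR1 at 107 ± 0.151, then ATG8F at 80.9 ± 8.54, ATG8I at 72.8 ± 9.79 and ATG8H at 71.7 ± 2.57 FPKM. ATG8F overlapped ATG8I, and ATG8I overlapped ATG8H. Below them were ATG8E (63 ± 3.05), ATG8B (46.5 ± 2.09), ATG8C (38.5 ± 3.94), ATG8D (28.9 ± 3.56) and ATG8G (12.7 ± 2.82 FPKM).

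In skip-1 without ABA the order began with NBR1 (146 ± 29.4 FPKM) and ATG8F (137 ± 2.71), which overlapped, then ATG8E (88.8 ± 15) and ATG8I (64.7 ± 0.426 FPKM). ATG8A (43.9 ± 4.32) overlapped ATG8C (40.3 ± 4.5), and after ATG8D (32.8 ± 0.2) and ATG8B (24.5 ± 1.18), ATG8H (21 ± 0.338) overlapped ATG8G (19.4 ± 3.13 FPKM). With ABA, skip-1 had NBR1 at 127 ± 4.34 FPKM, and ATG8E, not ATG8A, was its most abundant ATG8 transcript, at 120 ± 3.01 FPKM. ATG8F (103 ± 9.11), ATG8I (65.5 ± 2.17) and ATG8A (65.2 ± 6.47) came next, and only ATG8I and ATG8A overlapped. ATG8H stood at 50.5 ± 0.411, ATG8C at 35.9 ± 0.289, ATG8D at 33.8 ± 0.993, ATG8B at 32.1 ± 1.01 and ATG8G at 16.8 ± 2.01 FPKM. ATG8G had the lowest mean FPKM of the members in all 4 groups, and it overlapped ATG8H in skip-1 without ABA.

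**Figure D1:**
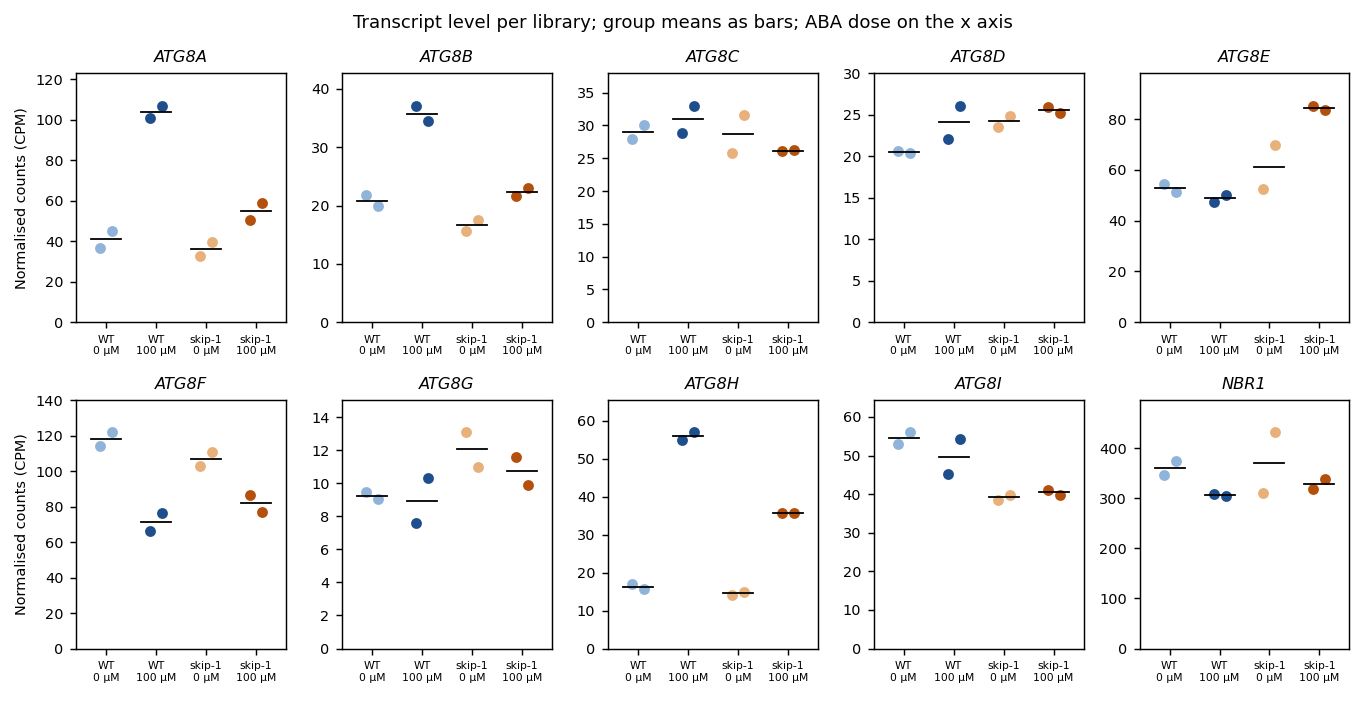
Transcript levels of the 9 ATG8 genes and NBR1 in normalised counts (CPM), one point per library and a bar at the mean of the 2 libraries of a group, by genotype and ABA dose. ATG8A, ATG8B and ATG8H were highest in both wild-type libraries with ABA, whereas ATG8E was highest in both skip-1 libraries with ABA.

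The first comparison asked which members 3 h of ABA changed in wild type. ATG8H, ATG8A and ATG8B rose, ATG8F fell, and 6 members, NBR1 among them, did not pass the test. That is 3 members called higher and 1 called lower of 10, where 43.1% of all tested genes were called, 23.7% higher and 19.5% lower. The median change of the members was 0.02 on the log2 scale, against −0.011 over all genes. Higher genes were 54.9% of all calls with the trimmed mean scaling and 36% with scaling by library size alone.

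ATG8A (AT4G21980, chromosome 4, 11655562 to 11657034, plus strand, 6 exons) codes for an ATG8 that needs processing. It was at 36.8 and 45.2 CPM in the wild-type libraries without ABA and at 101 and 107 CPM with it, so both ABA libraries lay above both others. Its log2 fold change was 1.34 ± 0.14 (2.53-fold, edgeR adjusted p = 0.000104). ATG8B (AT4G04620, chromosome 4, 2328442 to 2330590, minus strand, 6 exons), its closest relative in coding sequence, was at 21.8 and 19.9 CPM without ABA and at 37.1 and 34.4 CPM with it. Both ABA libraries lay above both others, with a log2 fold change of 0.78 ± 0.11 (edgeR adjusted p = 0.000644). ATG8H (AT3G06420, chromosome 3, 1954990 to 1956397, minus strand, 5 exons), one of the pair made with an exposed glycine, went from 16.9 and 15.6 CPM to 54.8 and 57 CPM. This was the largest relative change of the 10, a log2 fold change of 1.79 ± 0.10 (3.45-fold, edgeR adjusted p = 3.52e-06).

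ATG8F (AT4G16520, chromosome 4, 9306339 to 9308538, minus strand, 6 exons), the most abundant ATG8 transcript without ABA, fell from 114 and 122 CPM to 66.2 and 76.1 CPM. Both ABA libraries lay below both others, with a log2 fold change of −0.73 ± 0.11 (edgeR adjusted p = 0.00078). The calls of ATG8A, ATG8B, ATG8F and ATG8H held in all 14 alternative analyses.

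The other members of the group that needs processing showed smaller differences in wild type. ATG8C (AT1G62040, chromosome 1, 22932760 to 22934549, plus strand) was at 28 and 30.1 CPM without ABA and 28.8 and 33 with it, and its log2 fold change of 0.09 ± 0.13 (edgeR adjusted p = 0.608) turned to −0.12 with scaling by library size alone and to −0.01 without ABA library 2 of wild type. ATG8D (AT2G05630, chromosome 2, 2082894 to 2084905, minus strand) was at 20.6 and 20.4 CPM, and at 22.1 and 26.1 CPM with ABA (0.23 ± 0.11, edgeR adjusted p = 0.131). ATG8E (AT2G45170, chromosome 2, 18624264 to 18625791, plus strand) was at 54.6 and 51.2 CPM, and at 47.5 and 50.3 CPM with ABA (log2 fold change −0.11, 95% interval −0.42 to 0.19, edgeR adjusted p = 0.528). ATG8G (AT3G60640, chromosome 3, 22415751 to 22417548, plus strand) was at 9.47 and 9.03 CPM, and its ABA libraries at 7.57 and 10.3 CPM lay on either side (−0.05 ± 0.18, edgeR adjusted p = 0.848, and 0.15 without ABA library 1 of wild type). None of these 4 genes passed the threshold.

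ATG8I (AT3G15580, chromosome 3, 5273526 to 5275095, minus strand, 5 exons), the other ATG8 with an exposed glycine, was at 52.9 and 56.1 CPM without ABA and at 45.2 and 54.2 CPM with it. The groups overlapped, and the log2 fold change was −0.13 ± 0.11 (edgeR adjusted p = 0.35). NBR1 (AT4G24690, chromosome 4, 12741032 to 12744670, plus strand, 7 exons), the receptor, was at 347 and 374 CPM without ABA and at 308 and 304 CPM with it. Both ABA libraries lay below both others, but the log2 fold change of −0.24 (95% interval −0.57 to 0.10) did not pass (edgeR adjusted p = 0.233). With scaling by library size alone, ATG8I (−0.34, edgeR adjusted p = 0.0289) and NBR1 (−0.44, edgeR adjusted p = 0.0213) were called lower.

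**Figure D2:**
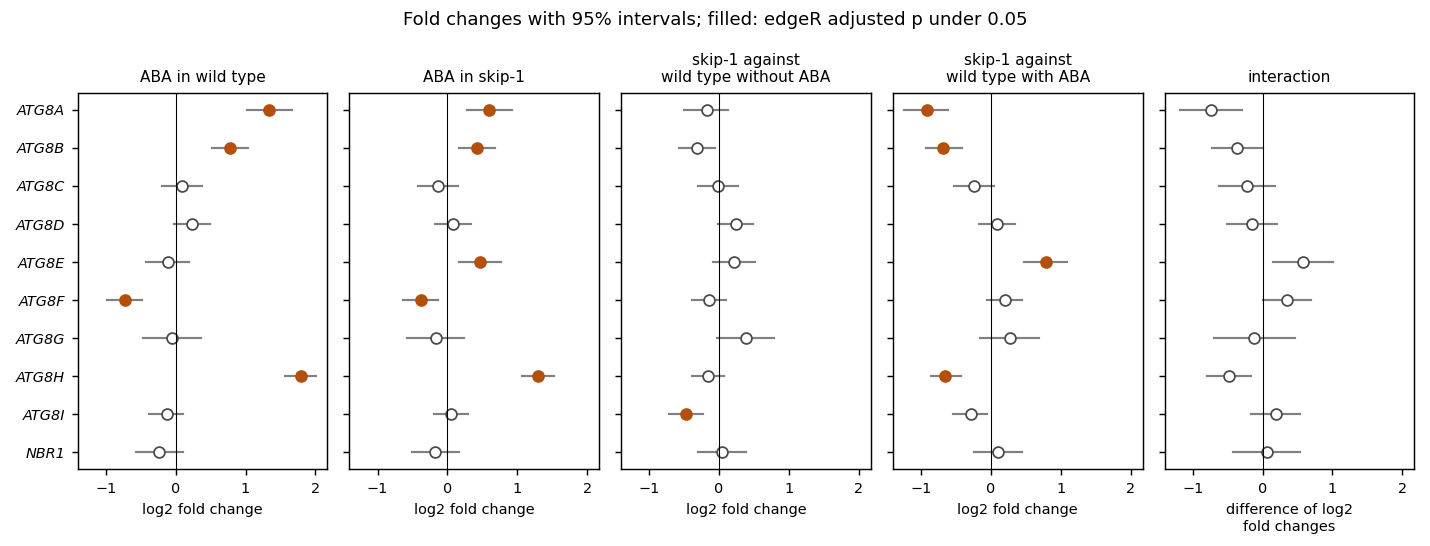
Log2 fold changes of the 10 members in the 5 comparisons, as points with 95% intervals, filled where the edgeR adjusted p was under 0.05. ATG8H had the largest increase with ABA in both genotypes (1.79 and 1.3), and no member was called for the interaction.

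The same treatment was then compared in skip-1. ATG8H, ATG8A, ATG8B and ATG8E were called higher and ATG8F lower, but only the call of ATG8H held when single libraries were left out. That is 4 members called higher and 1 lower of 10, where 28.5% of all genes passed, 16.3% upward and 12.1% downward, with a median of 0.07 over the members and −0.021 over all genes. ATG8H rose from 14 and 15 CPM to 35.7 and 35.8 CPM, a log2 fold change of 1.3 ± 0.10 (2.46-fold, edgeR adjusted p = 4.55e-05), in all 14 alternatives.

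ATG8A rose from 32.7 and 39.5 CPM to 50.6 and 59 CPM in skip-1, a log2 fold change of 0.60 ± 0.14 (edgeR adjusted p = 0.013). This call was lost without mock library 1 of skip-1 (edgeR adjusted p = 0.067) and without its ABA library 2 (0.0951). ATG8B rose from 15.7 and 17.6 CPM to 21.7 and 23 CPM, a log2 fold change of 0.42 ± 0.11 (edgeR adjusted p = 0.0239), and the call was lost without mock library 1 of skip-1 (0.11), without its ABA library 1 (0.0678) or 2 (0.138), and in a fit of these 2 groups alone (0.0513). In both genes the skip-1 libraries with ABA lay above those without and below those of wild type with ABA.

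ATG8E was at 52.4 and 69.9 CPM in skip-1 without ABA and at 85.3 and 83.5 CPM with it, so the libraries did not overlap. Its log2 fold change was 0.46 ± 0.13 (edgeR adjusted p = 0.0305). The call was lost without mock library 1 of skip-1 (0.27, edgeR adjusted p = 0.119), its ABA library 1 (0.119) or 2 (0.107) or mock library 1 of wild type (0.0524), and in a fit of the 2 groups alone (0.0718). Without mock library 2 of skip-1, the higher of that pair, the change was 0.71 (edgeR adjusted p = 0.00341). ATG8F fell from 103 and 111 CPM to 86.3 and 77.2 CPM, with a log2 fold change of −0.38 ± 0.11 (edgeR adjusted p = 0.0286), and this call was lost without mock library 2 (0.146) or ABA library 2 (0.154) of skip-1 and in a fit of the 2 groups alone (0.0597).

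The remaining members did not pass in skip-1. ATG8C was at 25.8 and 31.6 CPM without ABA and at 26.1 and 26.2 with it (−0.13, and 0.05 without mock library 2 of skip-1). ATG8D went from 23.5 and 24.9 CPM to 25.9 and 25.2 (0.08), ATG8G from 13.1 and 11 CPM to 11.6 and 9.9 (−0.17), and ATG8I from 38.4 and 39.9 CPM to 41.2 and 39.9 (0.05). NBR1 was at 310 and 432 CPM without ABA, the widest gap between replicates among its groups, and at 318 and 338 CPM with it. Its log2 fold change of −0.18 ± 0.15 (edgeR adjusted p = 0.406) rested on mock library 2 of skip-1. Without that library it was 0.11, and without mock library 1 it was −0.40 and past the threshold (edgeR adjusted p = 0.036).

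The genotypes were next compared without ABA, which asks how the members differed in seedlings that received 0 µM. Only ATG8I differed past the threshold, and it was lower in skip-1. That is 0 members called higher and 1 lower of 10 by edgeR, where 20.5% of all genes passed, 10.4% upward and 10% downward. DESeq2 also called none higher. By edgeR 2 members had an unadjusted p under 0.05, and the share of all genes at that cutoff is not given here. The median over the members was −0.08, against 0.016 over all genes. ATG8I was at 52.9 and 56.1 CPM in wild type and at 38.4 and 39.9 CPM in skip-1, a log2 fold change of −0.48 ± 0.11 (edgeR adjusted p = 0.017). The groups lay apart, yet the call was lost without mock library 1 (0.0514) or 2 (0.0996) of wild type or mock library 1 of skip-1 (0.0734).

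Among the members that did not pass, ATG8B had the next smallest adjusted p, with 21.8 and 19.9 CPM in wild type and 15.7 and 17.6 CPM in skip-1 (−0.32 ± 0.11, edgeR adjusted p = 0.0769). Both skip-1 libraries of ATG8G (13.1 and 11 CPM) lay above those of wild type (9.47 and 9.03 CPM), with a log2 fold change of 0.38 ± 0.18 (edgeR adjusted p = 0.167). ATG8D had the same adjusted p, with 0.24 ± 0.11 on the log2 scale. ATG8A (−0.18), ATG8E (0.21), ATG8F (−0.14), ATG8H (−0.16) and ATG8C (−0.02) stood closer to 0 on that scale, and ATG8C turned to 0.04 without mock library 2 of wild type and to 0.12 without mock library 1 of skip-1. NBR1 differed by 0.04 (95% interval −0.30 to 0.38, edgeR adjusted p = 0.875), by −0.02 without mock library 1 of wild type and by −0.21 without mock library 2 of skip-1.

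With ABA in both genotypes, 4 members differed between skip-1 and wild type. ATG8A, ATG8B and ATG8H were lower in skip-1, and ATG8E was higher. That is 1 member called higher and 3 lower of 10, where 31.0% of all genes passed, 13.6% upward and 17.4% downward. The median over the members was −0.08, against −0.021 over all genes, and higher genes were 43.9% of all calls, or 62.6% with scaling by library size alone. All 4 calls held in the 14 alternatives.

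ATG8A was at 101 and 107 CPM in wild type with ABA and at 50.6 and 59 CPM in skip-1, a log2 fold change of −0.92 ± 0.14 (1.9-fold lower, edgeR adjusted p = 0.00223). ATG8B was at 37.1 and 34.4 CPM against 21.7 and 23 CPM (−0.68 ± 0.11, edgeR adjusted p = 0.00326), and ATG8H at 54.8 and 57 CPM against 35.7 and 35.8 CPM (−0.65 ± 0.10, edgeR adjusted p = 0.00212). In all 3 genes the libraries of the 2 genotypes did not overlap. The share of all tested genes that lay apart in this way is not given here, nor for the other comparisons in which libraries are said to lie apart. ATG8E stood the other way, at 47.5 and 50.3 CPM in wild type and 85.3 and 83.5 CPM in skip-1, a log2 fold change of 0.79 ± 0.13 (1.73-fold higher, edgeR adjusted p = 0.00366).

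ATG8I was at 45.2 and 54.2 CPM in wild type with ABA and at 41.2 and 39.9 CPM in skip-1, and its log2 fold change of −0.29 ± 0.11 did not pass (edgeR adjusted p = 0.0693). It passed with the replicate number as a block (edgeR adjusted p = 0.0451) and without ABA library 1 of wild type (0.0424). ATG8F was at 66.2 and 76.1 CPM against 86.3 and 77.2 CPM (0.20 ± 0.11, edgeR adjusted p = 0.191), and it was called higher with scaling by library size alone (0.34, edgeR adjusted p = 0.0383). ATG8C (−0.24), ATG8G (0.27) and ATG8D (0.09, and −0.03 without ABA library 1 of wild type) did not pass. NBR1 differed by 0.10 (95% interval −0.24 to 0.44, edgeR adjusted p = 0.639).

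The difference between both ABA effects was tested as an interaction. By edgeR it called 0 of 10 members, where 3.07% of all genes passed, 0.800% upward and 2.27% downward. Of these genome-wide calls, 26.1% were higher, or 55.5% with scaling by library size alone. An edgeR unadjusted p under 0.05 was found for 3 members, and DESeq2 called 0. The 3.07% is a share by adjusted p, and none by unadjusted p is given here. ATG8A had an ABA effect that was smaller in skip-1 by 0.74 ± 0.20 on the log2 scale (−0.74, edgeR adjusted p = 0.0865). It passed with the replicate number as a block (edgeR adjusted p = 0.0117). ATG8H followed with −0.48 ± 0.14 (edgeR adjusted p = 0.103), and ATG8E went the other way with 0.58 ± 0.19 (edgeR adjusted p = 0.139), or 0.83 without mock library 2 of skip-1 (edgeR adjusted p = 0.027). ATG8B (−0.36, edgeR adjusted p = 0.26) and ATG8F (0.35, edgeR adjusted p = 0.257) followed, and NBR1 was at 0.06 (95% interval −0.42 to 0.54). That ABA changed ATG8E past the threshold in skip-1 and not in wild type is thus not shown to be a difference between the genotypes.

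Set against each other per length, the 9 ATG8 transcripts summed to 513 and 522 FPKM in wild type without ABA and to 500 and 554 with it. The sums were 455 and 490 FPKM in skip-1 without the hormone, then 530 and 515 with it. As these are sums over the members, no test was made. The wild-type groups overlapped in this sum, while its composition differed. With the scaling of the count test in place of the authors', the sums were 483 and 499 FPKM without ABA and 551 and 604 with it in wild type, which no longer overlapped, and 431 and 486, then 522 and 515 FPKM in skip-1.

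ATG8F made up 29.9 ± 0.584% of the summed ATG8 FPKM in wild type without ABA and 15.3 ± 0.521% with it (mean ± SD, n = 2). ATG8A went from 9.85 ± 1.19% to 21.3 ± 0.462%, and ATG8H from 4.64 ± 0.376% to 13.6 ± 0.488%. In skip-1 ATG8F went from 29 ± 0.944% to 19.6 ± 1.35%, ATG8A from 9.29 ± 0.428% to 12.5 ± 1.49% and ATG8H from 4.45 ± 0.161% to 9.67 ± 0.116%. ATG8E was at 15.2 ± 1.05% and 12 ± 0.279% in wild type, and at 18.8 ± 2.2% and 23 ± 0.114% in skip-1. ATG8I was at 17.8 ± 0.309% in wild type without ABA and at 12.5% to 13.8% in the other groups, while ATG8G was at 2.39% to 4.12%. NBR1 amounted to 27.6% and 28.8% of the ATG8 sum in the wild-type libraries without ABA and to 21.5% and 19.4% with it. In skip-1 the values were 27.6% and 34.1% without ABA and 23.4% and 25.2% with it.

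**Figure D3:**
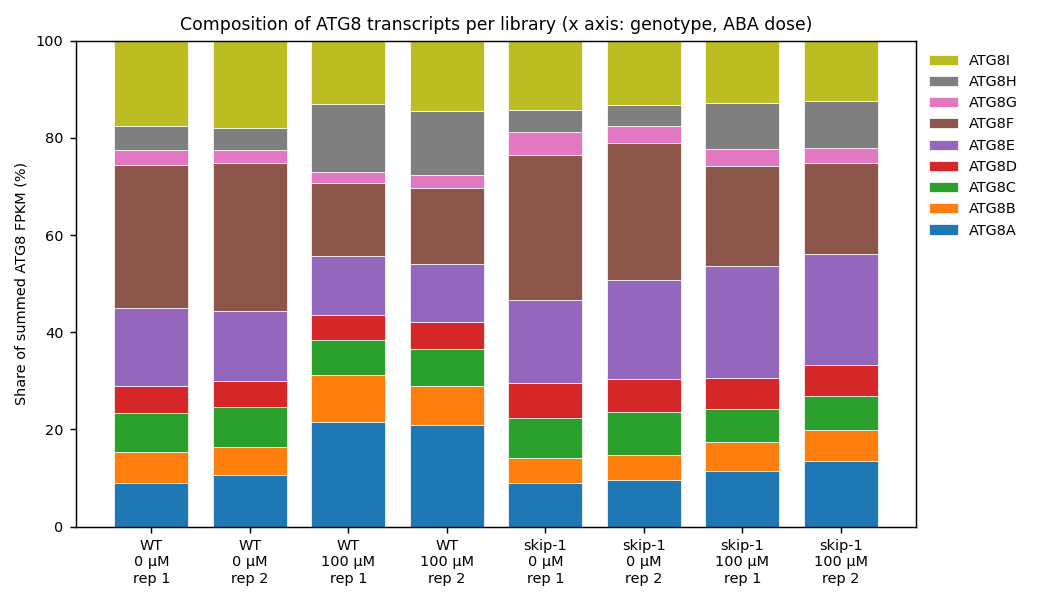
Share of each ATG8 gene in the summed ATG8 FPKM (%), one stacked bar per library, by genotype, ABA dose and replicate. The share of ATG8F was 15 to 15.7% in wild type with ABA and 28.3 to 30.3% in the 4 libraries without ABA.

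The members were then set beside 50 other genes of autophagy and its control, in 6 lists, of which 49 were tested. The lists were chosen with earlier results of these data known, so their counts are a description, and no list was tested as a set. In wild type ABA raised 21 of these 49 and lowered 2, where 23.7% of all tested genes were higher and 19.5% lower. Their median log2 fold change was 0.31, against −0.011 over all genes. The counts by list that follow stand against the same shares. With scaling by library size alone, 13 were higher and 5 lower, and 36% of all calls were higher, against 54.9% with the trimmed mean scaling. The 2 lower genes, AT1G49180 (a protein kinase, −0.61 ± 0.15, edgeR adjusted p = 0.00922) and AT3G18770 (annotated as autophagy-related protein 13, −0.48 ± 0.16, edgeR adjusted p = 0.0431), were named after their values were seen. Fewer genes were called lower without either mock library or ABA library 1 of wild type, or without either mock library of skip-1. No share over all genes is given beside this.

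Of the genes that supply and fill the growing membrane, ATG9, the membrane protein of the vesicles that feed it, went from 26.4 and 25.7 CPM to 76.5 and 85.2 CPM in wild type (1.63 ± 0.10, edgeR adjusted p = 7.03e-06). ATG18F and ATG18H, of the lipid-binding ATG18 family, had log2 fold changes of 1.70 and 1.40. Of 9 tested genes of ATG9, ATG2 and ATG18, 4 rose and none fell. Of the 9 genes of ATG8 and ATG12 conjugation, 4 rose and none fell. ATG7, the enzyme that activates ATG8 for its attachment, went from 12.5 and 11.1 CPM to 31 and 35.1 CPM (1.48 ± 0.12, edgeR adjusted p = 2.86e-05). AT2G44140, a C54 family peptidase, rose by 0.57 (log2), and AT3G59950, of the same family, by 0.45, a call lost with scaling by library size alone (edgeR adjusted p = 0.0543).

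In the ATG1 kinase list, which holds both lower genes, 3 of 8 rose, the kinase genes AT3G53930 (1.02) and AT3G61960 (0.62) and ATG13 (0.82), a regulator of that kinase. In the PI3K complex list 3 of 6 rose, led by AT1G77890 (1.29), which RefSeq annotates as a DNA-directed RNA polymerase II protein. ATG6, of the lipid kinase complex, and AT2G32760 both had log2 fold changes of 0.39. Both lost their calls with scaling by library size alone, by DESeq2 and in a fit of the 2 groups alone. Both calls were also lost without either mock library or ABA library 2 of wild type or either ABA library of skip-1. AT2G32760 lost its call without ABA library 1 of wild type as well. Among 11 adaptors and partners of ATG8, 5 rose and none fell. TSPO, a stress-induced membrane protein that binds ATG8, went from 0.665 and 1.34 CPM to 336 and 430 CPM (8.57 ± 0.54, edgeR adjusted p = 4.99e-05). DSK2a (AT2G17190), a ubiquitin-binding receptor, rose by 0.63 and RPN10, a proteasome subunit and receptor for proteasome breakdown, by 0.56 (log2). Of 6 genes of TOR and SnRK1 control, KIN10 (0.31) and RAPTOR1A (0.65) were called higher. Both lost the call with scaling by library size alone, and KIN10 also by DESeq2. Both lost it without mock library 2 or either ABA library of wild type. KIN10 lost it without mock library 1 of wild type as well, and RAPTOR1A without either ABA library of skip-1.

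In skip-1 ABA raised 16 of the 49 genes and lowered 0, where 16.3% of all tested genes were higher and 12.1% lower. Their median log2 fold change was 0.22, against −0.021 over all genes. By unadjusted p under 0.05, 24 of the 49 differed. That count cannot be set against the shares above, which are by adjusted p. Fewer genes were called higher without mock library 1 or either ABA library of skip-1, with no share over all genes beside this. One gene was called lower with scaling by library size alone, as with the replicate block and without mock library 1 of skip-1, and DESeq2 called 0 lower. ATG9 went from 33.1 and 35.1 CPM to 66.8 and 75 CPM (1.06 ± 0.10, edgeR adjusted p = 0.00017), ATG7 from 14.8 and 14.1 CPM to 26.9 and 29.8 CPM (0.97 ± 0.12, edgeR adjusted p = 0.000664), and TSPO from 0.601 and 2.45 CPM to 124 and 144 CPM (6.5 ± 0.50, edgeR adjusted p = 0.000273). ATG18F (1.16), AT1G77890 (1.10), ATG18H (0.94), AT3G53930 (0.88) and ATG13 (0.62) also rose in all alternatives. ATG101 (AT5G66930), AT2G44140, FYVE1 (AT1G20110), AT2G32760, VPS15 and TOR were called higher by 0.35 to 0.44 (log2). Each lost its call when either ABA library of skip-1 was left out. Scaling by library size alone also lost the calls of ATG101, AT2G32760, VPS15 and TOR. DESeq2 lost those of ATG101, AT2G44140, AT2G32760 and VPS15. A fit of the 2 groups alone lost those of AT2G44140, FYVE1, AT2G32760 and VPS15.

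**Figure D4:**
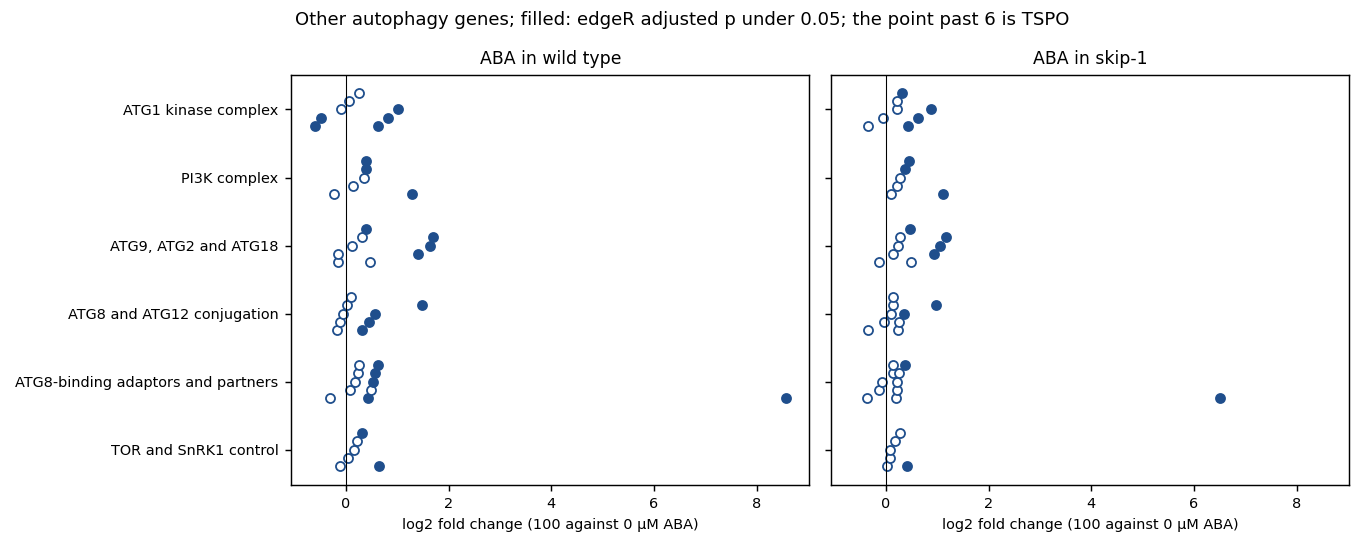
Log2 fold changes with ABA of 49 other autophagy genes in 6 lists, in wild type and in skip-1, filled where the edgeR adjusted p was under 0.05. In wild type 21 genes were called higher and 2 lower, in skip-1 16 higher and 0 lower, and TSPO lies apart at 8.57 and 6.5. The lists were chosen with earlier results of these data known.

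Between the genotypes, ATG18F kept its call in all 14 alternatives both without and with ABA. It was at 21.2 and 21.1 CPM in wild type without ABA and at 47.8 and 43.8 CPM in skip-1 (1.11 ± 0.10, edgeR adjusted p = 0.000495), and with ABA at 65.7 and 71.8 CPM against 105 and 100 CPM (0.58 ± 0.09, edgeR adjusted p = 0.00301). ATG18C was at 6.53 and 6.27 CPM in wild type with ABA and at 12.3 and 10.9 CPM in skip-1 (0.86 ± 0.18, edgeR adjusted p = 0.00788). Without ABA 7 of 49 genes were called higher and 2 lower, where 10.4% of all tested genes were higher and 10% lower, so the higher count was near the background. The median log2 fold change was 0.15, against 0.016 over all genes. The other 6 called higher were ATG18C (0.91), ATG10 (0.60), an enzyme of ATG12 conjugation, AT3G61960 and AT3G53930 (0.47 each), ATG9 (0.39) and AT5G50230 (0.38), and the 2 lower ones were LST8-1 (−0.50), a partner of the TOR kinase, and VPS34 (−0.44), the lipid kinase. These 8 lost their calls without mock library 2 of wild type, among other libraries. ATG10, ATG9 and AT5G50230 also lost theirs by DESeq2 and in a fit of the 2 groups alone, and AT5G50230 with scaling by library size alone. Fewer were called higher or lower without either mock library of wild type or mock library 1 of skip-1. No share over all genes is given beside this. With ABA 8 were called higher and 3 lower, where 13.6% of all tested genes were higher and 17.4% lower, so the higher count was again near the background. The median was 0.04, against −0.021 over all genes. With scaling by library size alone 13 were higher and 1 lower, and 62.6% of all calls were higher, against 43.9% with the trimmed mean scaling. Fewer were called higher without ABA library 1 of wild type or either ABA library of skip-1. Fewer were called lower without ABA library 2 of wild type or either ABA library of skip-1. Neither has a share over all genes beside it. ATG18D (0.71), ATG12A (0.65), AT2G37840 (0.62), AT1G49180 (0.49), AT5G50230 (0.43) and ATG11 (AT4G30790, 0.32) were called higher, and DSK2a (−0.38) and LST8-1 (−0.37) lower. These 8 lost their calls without ABA library 2 of skip-1, among other libraries. DSK2a and LST8-1 also lost theirs with scaling by library size alone, and AT1G49180, ATG11 and ATG18D by DESeq2. In a fit of the 2 groups alone, AT1G49180 and LST8-1 lost theirs. TSPO, at 336 and 430 CPM in wild type with ABA and 124 and 144 CPM in skip-1, differed by −1.51 ± 0.36 (edgeR adjusted p = 0.0232). Its call was lost without any 1 of these 4 libraries, by DESeq2, and with no filter beyond 1 count in any library. For the interaction edgeR called 0 of the 49 genes, DESeq2 called 0, and 2 were called lower with the replicate number as a block. By edgeR 10 had an unadjusted p under 0.05, a cutoff with no share of all genes given here.

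Some members overlap a neighbour, and the sources used here do not say whether reads were counted by strand. ATG8A shares 27 bases at its end with APR3 (AT4G21990), an enzyme of sulfate reduction on the opposite strand, which was at 71.5 to 249 CPM and higher in replicate 1 than in replicate 2 of every group. ATG8A was lower in replicate 1 of every group. NBR1 shares 101 bases with AT4G24700, which was at 0.643 to 4.17 CPM, and ATG8I contains AT3G15578, which had 0 counts in all libraries. The part of these overlaps in the members' counts was not tested.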

How the data were processed

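RNA-seq libraries of 8 seedling samples, 2 in each of 4 groups, were analysed. The table tested here holds raw read counts per gene, as the authors deposited it. FPKM values were deposited beside it, and all 185744 values above 0 equal the count over a gene length and the column total within a relative tolerance of 1e-06, so library size is their one scaling between samples. Per the submitters' processing notes, Bowtie2 2.2.3, TopHat2 2.0.12 and HTSeq 0.6.1 were used on TAIR10. The sources used here do not give what each tool did, its options, its handling of strand or the read length.

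The count test ran in edgeR 4.0.16 under R 4.3.3 (expression filter by group, trimmed mean of M values scaling, robust quasi-likelihood fit with 1 coefficient per group, 4 residual degrees of freedom). Benjamini-Hochberg adjustment of p-values ran over 21008 features in each of 5 comparisons, with a threshold of 0.05. The standard error, the size of the log2 fold change over the root of its F statistic, is approximate, and 95% intervals use it. The labels do not say whether replicates came from separate cultures, and a p-value then reflects only how these libraries spread, which may be technical. Alternatives were scaling by library size alone, DESeq2 1.42.0, other count filters, a replicate block, a fit of the 2 groups compared alone, and leaving out each library.

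All 10 members were named, and in each list and comparison up to 3 called genes with the smallest adjusted p. For NBR1 and for ATG8F, the ATG8 gene with the highest mean FPKM, the 5 genes most alike over the libraries were named. Genes overlapping a member were named too. Lists were written from general knowledge, and the members and lists were chosen with earlier results of these data known. A gene with no name of its own among its RefSeq symbol and synonyms is given by its locus, and DSK2a, FYVE1, ATG101 and ATG11 are RefSeq synonyms. Coordinates, coding sequences and windows came from RefSeq TAIR10.1, and the deposited table was matched to it by locus alone.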

Additional observations from a re-analysis of the deposited data

How the results depend on the processing

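Of 690 alternative values for single members, 649 kept their direction and their side of the threshold, 17 lost a call, 8 gained one and 16 changed sign. None of the 16 was a called change in the fit of all libraries. With scaling by library size alone, ATG8C with ABA in wild type became −0.12, and the interaction of ATG8D became 0.02 and that of ATG8G 0.05. Leaving out 1 library gave ATG8C −0.01 to 0.18 with ABA in wild type, −0.28 to 0.05 with ABA in skip-1 and −0.16 to 0.12 between genotypes without ABA. It gave ATG8G −0.29 to 0.15 with ABA in wild type and −0.32 to 0.12 in the interaction, and ATG8D −0.03 to 0.21 between genotypes with ABA. It gave NBR1 −0.4 to 0.11 with ABA in skip-1, −0.21 to 0.26 between genotypes without ABA and −0.16 to 0.35 in the interaction. The cause was not tested.

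For counts of calls, scaling by library size alone gave 3 members lower with ABA in wild type and 2 higher between genotypes with ABA. For the other autophagy genes it gave 13 higher and 5 lower with ABA in wild type, 1 lower with ABA in skip-1, and 13 higher and 1 lower between genotypes with ABA. Of the calls over all genes, 36%, 51.8% and 62.6% were then higher in these comparisons, against 54.9%, 57.4% and 43.9% with the trimmed mean scaling. A fit of the 2 groups alone gave 2 members higher and 0 lower with ABA in skip-1, and of the other genes 1 lower with ABA in wild type and 4 higher between genotypes without ABA. DESeq2 gave 1 other gene lower with ABA in wild type, and 4 and 5 higher between genotypes without and with ABA. Over all genes DESeq2 called 8168, 3910 and 5735 in these comparisons, and edgeR 9061, 4297 and 6504. Counts with 1 library left out, above and below, have no share over all genes beside them. Nor have those from a fit of the 2 groups alone. Changes in such counts are therefore no result about these genes.

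Leaving out 1 library gave 3 members higher and 1 lower with ABA in wild type each time. With ABA in skip-1 it gave 1 to 4 higher and 0 to 2 lower, between genotypes 0 higher and 0 to 1 lower without ABA, and 1 higher and 3 to 4 lower with ABA. For the interaction it gave 0 to 1 higher and 0 lower. Other autophagy genes ranged from 14 to 22 higher and 0 to 3 lower with ABA in wild type, 9 to 15 and 0 to 1 in skip-1, 1 to 7 and 0 to 2 between genotypes without ABA, 2 to 11 and 0 to 4 with ABA, and 0 higher and 0 to 1 lower for the interaction.

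With the replicate block, 1 member, ATG8A, was called lower for the interaction, and of the other autophagy genes 1 was lower with ABA in skip-1, 7 between genotypes with ABA and 2 for the interaction. The labels do not say that equal replicate numbers were handled together. Deviations of replicate 1 from the group mean correlated at 0.111 to 0.258 in the 6 pairs of groups, so all were positive. As replicate 2 mirrors replicate 1 in a group of 2, each group gives only 1 separate deviation. Whether equal numbers pair was not settled. Over all genes the interaction gave 644 calls in the fit without the block, 1357 with it and 1201 by DESeq2. The calls over all genes went from 5978 to 7093 with the block for ABA in skip-1, and from 6504 to 7735 between genotypes with ABA. They also rose with it from 9061 to 9892 for ABA in wild type and from 4297 to 5548 between genotypes without ABA.

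By CPM in place of FPKM, the ATG8F share was 32.6%, 16.6%, 31.5% and 21.4% in wild type without and with ABA and skip-1 without and with ABA. The ATG8H share was 13%, 4.28% and 9.35% in the last 3 of these groups. With 2 libraries a group, small changes of members with few counts, such as ATG8G, could not be resolved.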

Other observations

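Over the 8 libraries, the genes most like ATG8F by Pearson correlation of log2 CPM, among 15807 searched, were CYP71B18 (0.998), a cytochrome P450 gene, RFO1 (0.993), a wall-associated kinase gene, BRL2 (0.991), a receptor kinase gene, and AT5G10560 and AT3G14240 (0.99 each). Those most like NBR1 were AT5G06700 (0.993), PR4 (0.945), a chitin-binding defence protein gene, AT5G54520 (0.94), AT1G34020 (0.938) and AT5G06110 (0.932). These correlations describe 8 libraries of 4 groups that share their treatments, and the highest values among so many genes are high by selection.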
